A study of Homo sapiens with 6 samples.

Results

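The ZNF genes are the large family of human genes whose symbol is ZNF followed by a number, most of which encode proteins with arrays of C2H2 zinc fingers that bind DNA. A gene was counted here if its platform symbol had that form and a probe of it was detected (detection p under 0.01) on all 3 arrays of ODN2006 or of untreated cells, and it is represented by its brightest such probe. The genes were thus chosen by measured detection p-values and intensities. No fold change or test entered the choice, but detection in 1 group alone sufficed, so some genes entered through a group difference in detection. The platform lists 493 such genes, of which 216 met this, among 8706 genes tested in all. The measurements come from 6 Illumina HumanHT-12 v4 bead arrays of GEN2.2, a human line of leukaemic plasmacytoid dendritic cells, which sense foreign nucleic acids and make type I interferon. There were 3 arrays of cells stimulated with 1 µM ODN2006 for 2 h and 3 of untreated cells from log-phase culture. ODN2006 is a synthetic CpG oligonucleotide that activates Toll-like receptor 9. No control oligonucleotide is part of the series, both groups are 1 cell line, and separate cultures are not stated for the replicates. The p-values therefore measure the spread between these samples alone, which may be technical.

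In many ZNF proteins a KRAB domain at the amino end recruits the corepressor TRIM28 (KAP1), which brings in histone methyltransferases and heterochromatin proteins and silences the bound locus, often a transposable element. Other members carry a SCAN domain, which mediates pairing between such proteins, or zinc fingers alone. A large share of the human genes lies on chromosome 19 in runs of adjacent copies that arose by duplication. Which tested genes encode a KRAB domain was not analysed here, because no protein sequences were used, and KRAB-type genes were therefore not set against the others. The domains named below are textbook background.

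Markers of the labelled cell type were present in most cases. Of 16 plasmacytoid dendritic cell markers on the array, 14 were detected on all 6 arrays, CLEC4C, IL3RA, TCF4 and TLR9 among them, while PTCRA was detected on none and LILRA4 on 1 ODN2006 array. Of the markers of other cells, 7 of 10 monocyte and conventional dendritic cell genes were detected on all 6 arrays (CD14 and CD1C included), as were 2 of 5 T cell, 2 of 4 B cell, 1 of 4 NK cell, 0 of 3 stromal and 0 of 4 red cell or platelet genes, and no tested marker of any list passed in the limma fit (NRP1, at -0.57, was the 1 marker with an unadjusted p under 0.05). In bulk RNA, fewer cells of a type and less RNA per cell cannot be told apart. Between 13454 and 15447 of 47218 probes were detected on the ODN2006 arrays, and between 14827 and 15226 on the untreated arrays. ODN2006 replicate 1 had the fewest detected ZNF probes, 226 of 715, against 296 and 260 on the other ODN2006 arrays and 275, 288 and 290 on the untreated arrays.

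Among ZNF genes, transcripts fell far more often than they rose 2 h after ODN2006. In the limma fit over all tested probes, 15 of the 216 genes fell and 1 rose at an adjusted p under 0.05 (Benjamini-Hochberg), and 200 did not pass. Falls made up 6.94% of the ZNF genes and 1.81% of all 8706 tested genes, and the single rise 0.463% of the ZNF genes, against 3.41% rises among all tested genes. The median log2 change of the ZNF genes was -0.17, with quartiles of -0.33 and -0.04, and that of all tested genes -0.05. A change below 0 was measured for 171 of the 216 genes, or 79.2%, and for 61.0% of all tested genes. All 3 ODN2006 values lay below all 3 untreated values in 55 ZNF genes and above them in 7, whereas among all tested genes the groups separated in these directions in 12.4% and 8.48%. With an unadjusted limit of 0.05, 46 ZNF genes were lower and 5 higher, or 21.3% and 2.31%, while 8.67% of all tested genes were lower and 6.55% higher.

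**Figure D1:**
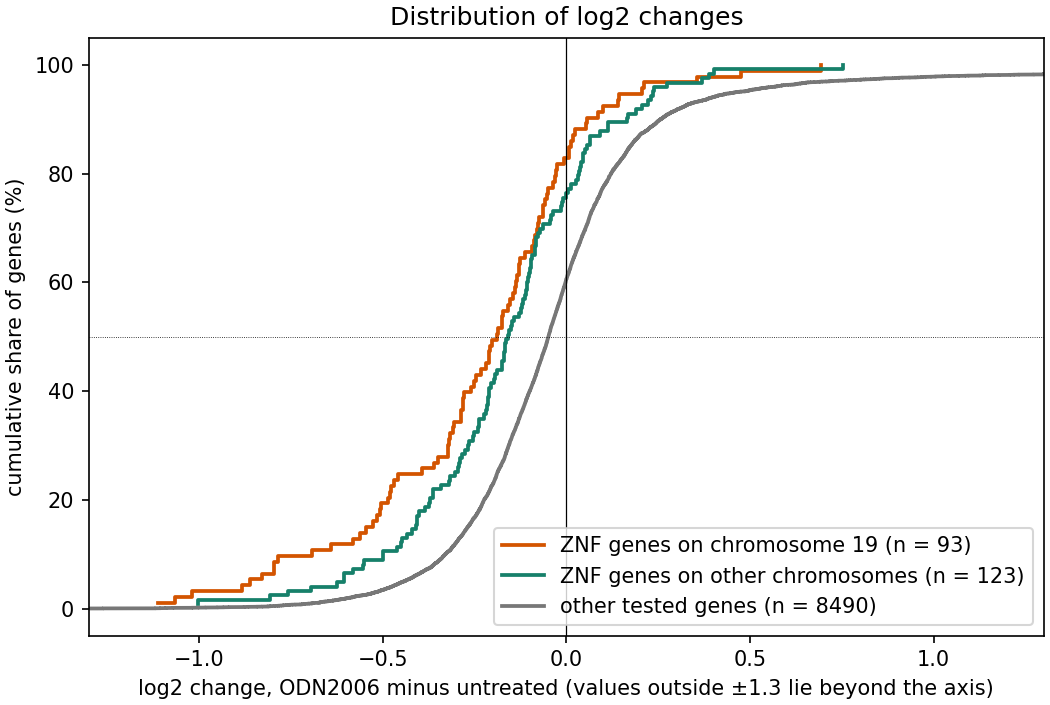
Cumulative share of genes (vertical axis, percent) by log2 change, ODN2006 minus untreated (horizontal axis), for ZNF genes on chromosome 19, ZNF genes on other chromosomes and the other tested genes. Both ZNF curves lie left of the curve of the other genes, with medians of -0.19, -0.16 and -0.05.

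Detection was part of the choice of genes. Of the 216, 181 were detected on all 6 arrays, 30 entered only through the untreated arrays and 5 only through the ODN2006 arrays, which favours falls in the 30 and rises in the 5. Among the 181, 13 fell and none rose by limma, and their median log2 change was -0.16. These falls are 7.18% of the 181, and of all 7964 tested genes detected on all 6 arrays 1.51% fell and 2.79% rose. An unadjusted p under 0.05 was found for 34 lower and 3 higher genes of the 181 (18.8% and 1.66%), and for 7.57% and 5.74% of the 7964. With the replicate block described below 1 of the 181 rose, and 3.89% of the 7964. Of the 277 ZNF genes that did not meet the detection rule, 222 were detected on no array and 55 on at least 1. Closest inside the limit were ZNF286B and ZNF790, whose highest detection p on the 3 arrays of the better group was 0.00909, and closest outside ZNF503 and ZNF654, at 0.0104. Their mean log2 intensities were 5.62, 5.11, 5.45 and 5.31 after ODN2006, against 5.43, 5.46, 5.60 and 5.25 in untreated cells. ZNF564 was detected on no ODN2006 array and on all 3 untreated arrays, with log2 values of 4.80, 5.04 and 5.21 after ODN2006, all below the untreated values of 5.38, 5.72 and 5.36, and its difference did not pass (log2 change -0.47 ± 0.16 SE, adjusted p = 0.166).

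The same replicate numbers appear in both groups. Arrays that share a number deviated together from their group means, so the fit was repeated with the replicate number as a block. With the block 24 ZNF genes fell, 11.1% of them, and 3 rose, while among all tested genes 4.11% fell and 4.65% rose. The 15 falls of the fit without the block were all among the 24. The median difference between same-numbered arrays was -0.19, -0.15 and -0.19 for the ZNF genes in pairs 1, 2 and 3, and -0.06, -0.05 and -0.05 for all tested genes. Each pair thus showed the lower median in ZNF genes, with 158, 155 and 161 of the 216 genes below 0.

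The falls that reached 2-fold were those of ZNF526, ZNF627, ZNF175, ZNF232 and ZNF322. ZNF526, a C2H2 gene without a KRAB domain, had normalized log2 intensities of 6.66, 7.19 and 6.87 on ODN2006 arrays, against 7.83, 8.05 and 8.17 on untreated arrays (log2 change -1.11 ± 0.17 SE, adjusted p = 0.00165). Its groups do not overlap. ZNF627, a KRAB zinc finger gene, had 6.005, 6.20 and 6.17 after ODN2006, against 7.11, 7.11 and 7.35 in untreated cells (-1.06 ± 0.14 SE, adjusted p = 0.000616). A second probe of ZNF627 gave -0.57 ± 0.17 SE and did not pass (adjusted p = 0.0982). ZNF175, a KRAB zinc finger gene known as OTK18 and described as a repressor of the HIV-1 promoter in macrophages, had 5.61, 5.87 and 5.87 after ODN2006, against 6.80, 6.88 and 6.73 in untreated cells (-1.02 ± 0.14 SE, adjusted p = 0.000821).

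ZNF322, whose product has been reported to act in MAP kinase signalling, had log2 intensities of 6.94, 7.08 and 6.72 after ODN2006, against 7.95, 7.98 and 7.82 in untreated cells (log2 change -1.003 ± 0.15 SE, adjusted p = 0.00119). Every ODN2006 value of ZNF322 was lower than every untreated one, as in the other 14 falls. ZNF232, a SCAN zinc finger gene, had 5.09, 5.27 and 5.16 after ODN2006, where 1 of the 3 arrays detected it, against 6.09, 5.87 and 6.57 in untreated cells (-1.004 ± 0.18 SE, adjusted p = 0.00557). Its ODN2006 mean of 5.17 was near the lowest detected signal of any array, 5.18, so the size of this fall reaches into background.

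**Figure D2:**
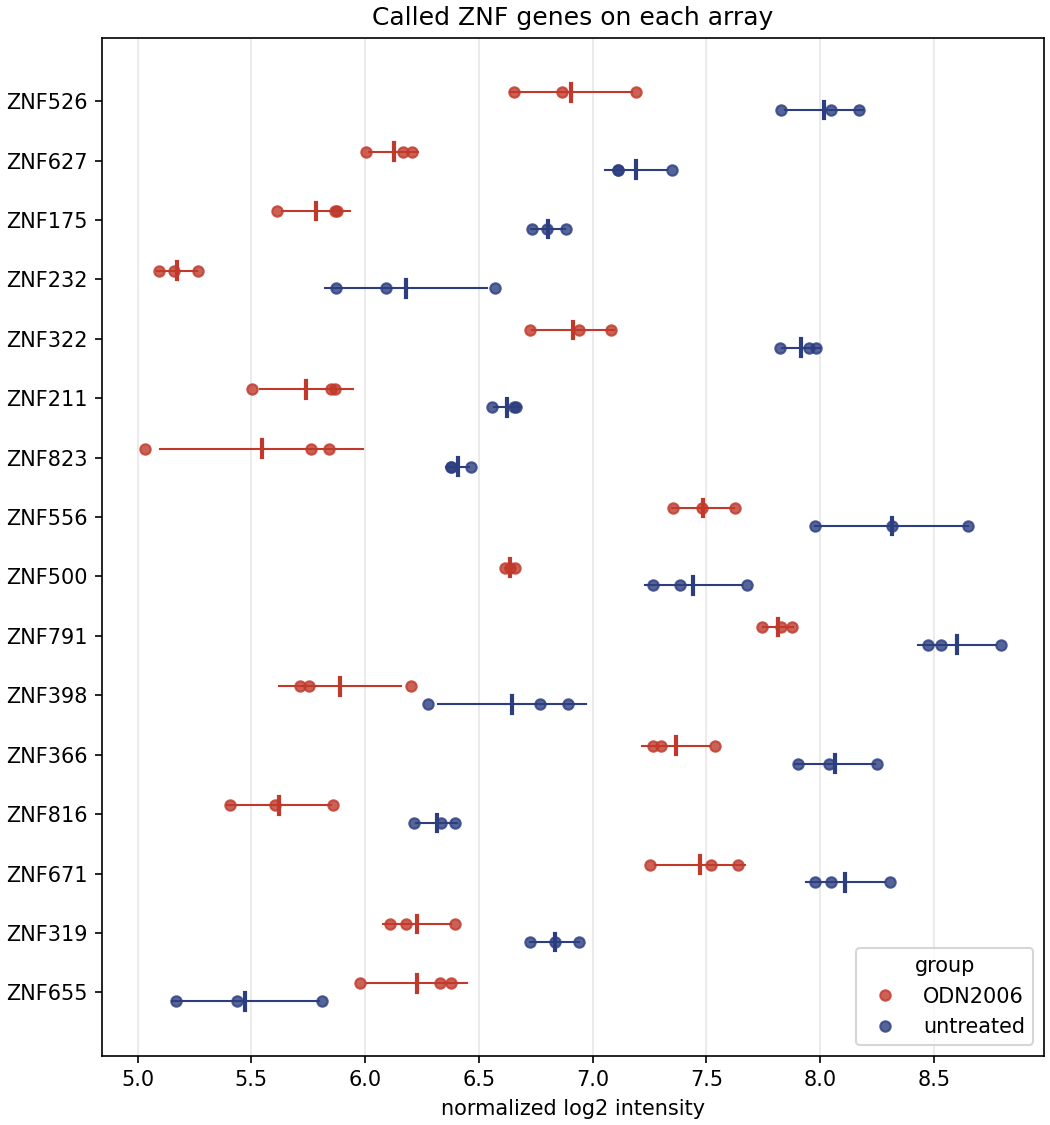
Normalized log2 intensity (horizontal axis) of the 16 ZNF genes that passed the test, with 3 ODN2006 points above 3 untreated points for each gene; upright bars are means and lines ± 1 SD (n = 3). In 15 genes all ODN2006 points lie left of all untreated points, and in ZNF655, the lowest row, they lie to the right.

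RefSeq promoters of GRCh38.p14, 250 bases before to 50 bases after the start, were matched by gene ID for 185 of the 216 genes, with the first listed start where several are listed. The promoters of the 4 largest falls and of the only rise are shown, from 5′ to 3′ on the gene's strand. The rise was smaller in size than several falls that are not shown. Capitals mark matches to the CCAAT box (CCAAT) and the GC box (GGGCGG) on either strand, which overlap in ZNF526.
ZNF526, GRCh38.p14 chr19:42220062-42220361, plus strand: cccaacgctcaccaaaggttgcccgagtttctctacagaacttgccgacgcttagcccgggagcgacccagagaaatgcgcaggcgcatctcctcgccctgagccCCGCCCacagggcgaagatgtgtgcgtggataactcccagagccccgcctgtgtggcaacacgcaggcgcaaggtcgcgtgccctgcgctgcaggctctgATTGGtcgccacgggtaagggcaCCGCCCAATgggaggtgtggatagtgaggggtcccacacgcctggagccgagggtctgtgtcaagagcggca
ZNF627, GRCh38.p14 chr19:11597233-11597532, plus strand: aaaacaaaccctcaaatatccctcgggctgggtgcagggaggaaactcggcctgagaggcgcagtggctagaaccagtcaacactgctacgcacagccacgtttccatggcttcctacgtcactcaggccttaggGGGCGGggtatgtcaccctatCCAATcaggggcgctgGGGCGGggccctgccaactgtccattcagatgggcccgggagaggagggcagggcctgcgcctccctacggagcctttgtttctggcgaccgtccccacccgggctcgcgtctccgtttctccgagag
ZNF175, GRCh38.p14 chr19:51571033-51571332, plus strand: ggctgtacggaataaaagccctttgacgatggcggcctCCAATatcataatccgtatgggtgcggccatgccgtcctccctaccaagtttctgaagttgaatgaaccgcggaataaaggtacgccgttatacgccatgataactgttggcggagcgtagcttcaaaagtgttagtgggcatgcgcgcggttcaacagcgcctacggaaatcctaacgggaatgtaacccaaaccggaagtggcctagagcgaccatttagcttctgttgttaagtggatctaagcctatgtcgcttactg
ZNF232, GRCh38.p14 chr17:5123067-5123366, minus strand: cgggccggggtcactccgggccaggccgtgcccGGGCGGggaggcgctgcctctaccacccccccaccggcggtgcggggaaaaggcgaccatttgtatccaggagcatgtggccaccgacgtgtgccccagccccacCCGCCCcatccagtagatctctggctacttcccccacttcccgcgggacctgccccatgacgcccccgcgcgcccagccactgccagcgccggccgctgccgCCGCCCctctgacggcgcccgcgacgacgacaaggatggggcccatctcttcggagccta
ZNF655, GRCh38.p14 chr7:99558392-99558691, plus strand: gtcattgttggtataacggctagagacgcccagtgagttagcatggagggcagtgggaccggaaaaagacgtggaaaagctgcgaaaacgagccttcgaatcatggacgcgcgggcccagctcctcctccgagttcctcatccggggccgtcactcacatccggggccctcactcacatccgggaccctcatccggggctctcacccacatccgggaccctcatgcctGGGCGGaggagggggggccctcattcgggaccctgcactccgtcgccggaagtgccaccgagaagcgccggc

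CCAAT occurred 2 times in the ZNF526 promoter, 1 time each in those of ZNF627 and ZNF175, and in neither ZNF232 nor ZNF655 in this window. GGGCGG occurred 2, 2, 0, 3 and 1 times in ZNF526, ZNF627, ZNF175, ZNF232 and ZNF655. ZNF232 and ZNF655 each have 3 listed starts, of which 1 is shown. The promoters had 50.7% (ZNF175) to 73.3% (ZNF232) G and C.

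A further 10 falls were smaller than 2-fold. Those of the KRAB genes ZNF211, ZNF823, ZNF556, ZNF791, ZNF816 and ZNF671 were -0.88 ± 0.15, -0.86 ± 0.20, -0.83 ± 0.18, -0.78 ± 0.15, -0.69 ± 0.16 and -0.64 ± 0.16 (log2 change ± SE, adjusted p between 0.00365 and 0.0385). ZNF823 was detected on 2 of 3 ODN2006 arrays, with 5.03 on the array that did not detect it and 5.84 and 5.76 on the other two, against 6.47, 6.38 and 6.38 in untreated cells. ZNF500, which has both a SCAN and a KRAB domain, had 6.64, 6.61 and 6.66 after ODN2006, against 7.27, 7.68 and 7.39 in untreated cells (-0.81 ± 0.15 SE, adjusted p = 0.00701). ZNF398, a KRAB zinc finger gene whose product has been reported to bind oestrogen receptor alpha, averaged 5.89 ± 0.27 after ODN2006 and 6.65 ± 0.33 in untreated cells (SD, n = 3 each, limma adjusted p = 0.0456). ZNF319, without a KRAB domain, averaged 6.23 ± 0.15 after ODN2006 and 6.83 ± 0.11 in untreated cells (SD, n = 3 each, limma adjusted p = 0.0336).

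ZNF366 encodes DC-SCRIPT, a zinc finger protein without a KRAB domain that is known as a corepressor of nuclear receptors and a marker of dendritic cells. Its log2 intensities were 7.30, 7.26 and 7.54 on ODN2006 arrays, against 8.04, 7.90 and 8.25 on untreated arrays (log2 change -0.70 ± 0.15 SE, adjusted p = 0.0200). The groups do not overlap at this probe. A second, dimmer probe of ZNF366 gave -0.48 ± 0.21 SE and did not pass (adjusted p = 0.295).

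The only rise was that of ZNF655, which encodes a Krueppel-like protein reported to interact with the signalling protein VAV1. It had log2 intensities of 6.33, 6.38 and 5.98 after ODN2006, against 5.17, 5.81 and 5.44 in untreated cells, where 2 of 3 arrays detected it (log2 change 0.75 ± 0.19 SE, adjusted p = 0.0374). All 3 ODN2006 values lay above the untreated ones. But ZNF655 entered only through the ODN2006 arrays, which favours rises. Its lowest untreated value, 5.17, was near the lowest detected signal of any array, 5.18, so the size of this rise reaches into background. ZNF383, a KRAB zinc finger gene reported to dampen MAP kinase signalling, had 5.85, 5.99 and 5.94 after ODN2006, against 4.91, 5.05 and 5.74 in untreated cells, where 1 array detected it. ZNF383 also entered only through the ODN2006 arrays, which favours rises. It did not pass (log2 change 0.69 ± 0.20 SE, adjusted p = 0.0811). It passed with the replicate block (0.0285), with array weights (0.0165) and without untreated replicate 3 (0.00477). That replicate held its highest untreated value, so leaving it out enlarges the difference. ZNF331, chosen after its values were seen as the remaining rise with the block, had 6.20, 5.97 and 6.34 after ODN2006, against 5.65, 5.53 and 5.91 in untreated cells (0.47 ± 0.16 SE, adjusted p = 0.146, and 0.0303 with the block).

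With the replicate block and not without it, 9 genes fell and 2, ZNF383 and ZNF331, rose. The largest differences among the 9 were those of ZNF20 (-0.80 ± 0.21 SE, adjusted p = 0.0558, and 0.00884 with the block), ZNF493 (-0.79 ± 0.22, 0.0599, and 0.00563), ZNF25 (-0.61 ± 0.18, 0.0811, and 0.00915), ZNF771 (-0.58 ± 0.23, 0.246, and 0.0155) and ZNF324 (-0.52 ± 0.15, 0.0833, and 0.0195). ZNF20 and ZNF771 were detected on 1 ODN2006 array and on all untreated arrays, and the groups of ZNF771 overlapped. Some of these genes also passed in other settings, namely ZNF20 with array weights (0.0288) and without untreated replicate 3 (0.0488) or ODN2006 replicate 2 (0.0259), ZNF493 with a trended and robust prior (0.0302), with array weights (0.0418) and without untreated replicate 1 (0.0492) or ODN2006 replicate 3 (0.0384), and ZNF25 without untreated replicate 1 (0.0385).

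Several of the calls depended on single arrays. No called gene changed direction in any setting. The calls of ZNF526, ZNF627, ZNF175, ZNF322, ZNF211 and ZNF791 were kept in every one of 15 alternative settings, and that of ZNF232 with any array left out. ZNF500 no longer passed without untreated replicate 2 (adjusted p = 0.0523), nor ZNF823 without any of the 3 untreated replicates (0.0714 to 0.0932). ZNF556 lost its call without untreated replicate 2 or 3, or without ODN2006 replicate 1 or 3 (0.0532 to 0.0771), ZNF398 when untreated replicate 2 or 3 or either of ODN2006 replicates 1 and 2 was left out (0.138 to 0.218), and ZNF366 when untreated replicate 1 or 3 or either of ODN2006 replicates 1 and 2 was left out (0.0546 to 0.0825). For ZNF816 these arrays were untreated replicates 1 and 2 and ODN2006 replicates 2 and 3 (0.0698 to 0.118), for ZNF671 the 3 untreated replicates and ODN2006 replicates 2 and 3 (0.0576 to 0.207), and for ZNF319 the 3 untreated replicates and ODN2006 replicates 1 and 3 (0.0610 to 0.135). ZNF655 lost its call when any of untreated replicates 1 and 3 and ODN2006 replicates 1 and 2 was left out (0.104 to 0.141). Without background correction log2 changes of dim genes were smaller, for example -0.47 for ZNF175 and -0.72 for ZNF526. The count of falls was 12, 8 and 10 without untreated replicate 1, 2 and 3 and 12, 16 and 12 without ODN2006 replicate 1, 2 and 3, with fewer arrays in each fit. Falls among all tested genes numbered 104, 51 and 76, and 101, 117 and 80, in the same fits, in place of 158. The median log2 change of the 216 genes stayed between -0.20 and -0.16.

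On chromosome 19 lay 93 of the 216 genes, and 123 lay elsewhere, by the RefSeq gene table of GRCh38.p14. Of the platform's ZNF genes on chromosome 19, 39.7% met the detection rule, and of those on other chromosomes 47.5%. On chromosome 19, 9 genes fell and none rose in the limma fit (unadjusted p under 0.05 in 24 lower and 3 higher genes, 25.8% and 3.23%, and 13 falls and 2 rises with the replicate block). On the other chromosomes 6 fell and ZNF655 rose (unadjusted p under 0.05 in 22 lower and 2 higher genes, 17.9% and 1.63%, and 11 falls and 1 rise with the block). The median log2 changes were -0.19 and -0.16, and 77 of 93 and 94 of 123 genes were below 0. Among untreated arrays, replicate 1 also lay low for ZNF genes on chromosome 19, with 73.1% of them below the untreated mean (median difference -0.08), against 72.0% to 74.2% on the ODN2006 arrays (median differences -0.29, -0.14 and -0.24). Without untreated replicate 1 the chromosome 19 median was -0.19, but leaving out a low untreated array favours a lower median. Whether shifts of single arrays contribute was not tested. The other 529 tested genes of chromosome 19 had a median of -0.03, with 11 falls and 23 rises (2.08% and 4.35%, and 7.18% and 6.43% at the unadjusted limit). The other 7961 genes elsewhere had a median of -0.05, with 132 falls and 273 rises (1.66% and 3.43%, and 8.43% and 6.67% at the unadjusted limit). The difference between ZNF genes on and off chromosome 19 was not tested.

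**Figure D3:**
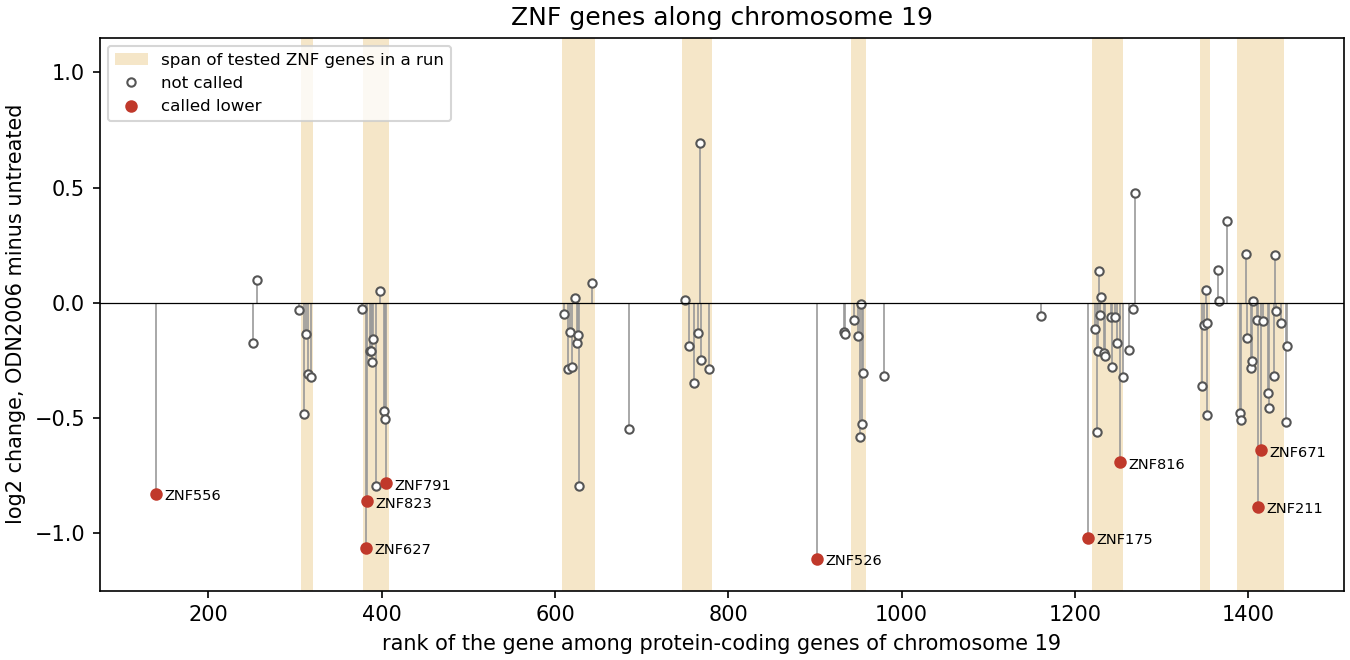
Log2 change, ODN2006 minus untreated (vertical axis), of the 93 tested ZNF genes by their rank among the 1451 protein-coding genes of chromosome 19 (horizontal axis); shaded bands span the tested genes of runs of adjacent zinc finger genes that hold at least 4 of them. Points below 0 prevail in each band, as they do among all tested genes (61.0% below 0), and the 9 genes that fell are filled and named.

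Runs of at least 5 zinc finger genes, with at most 1 other protein-coding gene between neighbours, numbered 15 on chromosome 19 and held 83 of the 93 genes. In the 8 runs with at least 4 tested ZNF genes, the median log2 change lay below 0 each time. The median of all tested genes also lay below 0, at -0.05, with 61.0% of them below 0. In the runs, the median ranged as follows. The run median was lowest, -0.47, in the run from ZNF627 to ZNF791, where 10 of 11 tested genes were below 0 and ZNF627, ZNF823 and ZNF791 fell. It was closest to 0, -0.09, in the run from ZNF579 to ZNF580, with 4 of 5 below 0. In the run from ZIM3 to ZNF837, 14 of 17 were below 0, and ZNF211 and ZNF671 fell. The run from ZNF627 to ZNF791 had 6 of its 11 tested genes detected on all 6 arrays. Of these, ZNF627 and ZNF791 changed by -1.06 and -0.78, and ZNF439, ZNF69, ZNF700 and ZNF763 by -0.26 to -0.16. The others, ZNF823, ZNF20, ZNF563, ZNF564 and ZNF490, entered only through the untreated arrays, which favours falls. The rank of this run without them was not computed.

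In pairs of adjacent genes that include a called gene, the neighbour passed in some cases and not in others. ZNF627 and its neighbour ZNF823 both fell. ZNF211 averaged 5.74 ± 0.20 after ODN2006 and 6.63 ± 0.06 in untreated cells, while its neighbour ZNF134 averaged 5.66 ± 0.25 after ODN2006 and 5.73 ± 0.15 in untreated cells (SD, n = 3 each). The change of ZNF134 was -0.08 ± 0.17 SE and did not pass. Next to ZNF791, ZNF490 had a log2 change of -0.50 ± 0.18 SE and did not pass (adjusted p = 0.162), and it was detected on 1 ODN2006 array and on all untreated arrays. The difference in change between neighbours was not tested.

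Most ZNF probes were dim. Their mean log2 intensity over the 6 arrays had a median of 6.65, against 7.74 for all tested genes, and 58.3% of the ZNF genes and 35.5% of all tested genes lay below 7. Intensities of different probes do not rank transcripts by abundance. The lower medians were found in each band of intensity. The lowest band, below 6, holds most of the 30 ZNF genes that entered only through the untreated arrays, which favours falls. These 30 had intensities from 5.23 to 6.06 and a median log2 change of -0.34. Among all 8706 tested genes 534 entered that way, with a median of -0.26. The median of the lowest band without such genes was not computed. Below 6 the median log2 change was -0.19 in 57 ZNF genes and -0.06 in 1210 other genes, from 6 to 7 it was -0.17 in 69 and -0.03 in 1751, from 7 to 8 it was -0.21 in 47 and -0.05 in 1657, from 8 to 9 it was -0.13 in 19 and -0.04 in 1484, and above 9 it was -0.13 in 24 and -0.06 in 2388. No ZNF gene above 9 passed in the limma fit in either direction, with none at an unadjusted p under 0.05. Of the other genes above 9, 0.50% fell and 3.35% rose, or 4.19% and 4.82% at the unadjusted limit. With 24 ZNF genes, these counts do not set them apart from the other genes. Between 7 and 8, 6 of 47 ZNF genes fell, 12.8%, and 2.47% of the other genes in that band.

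**Figure D4:**
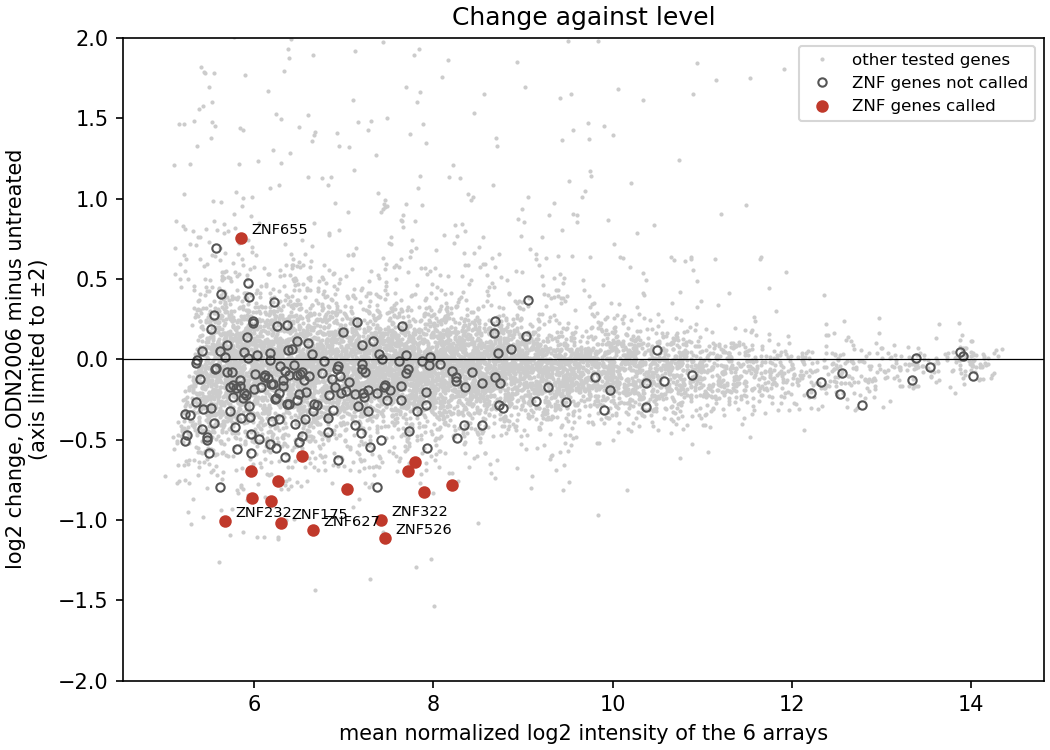
Log2 change, ODN2006 minus untreated (vertical axis, limited to ±2), against mean normalized log2 intensity of the 6 arrays (horizontal axis) for other tested genes, ZNF genes that did not pass and ZNF genes that passed. The 15 falls lie below an intensity of 9, and the ZNF genes above 9 lie between -0.32 and 0.37.

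The brightest ZNF probes were those of ZNF674, ZNF430, ZNF876P, ZNF14, ZNF549 and ZNF486, with mean log2 intensities of 14.01, 13.91, 13.87, 13.53, 13.38 and 13.34. ZNF876P is a transcribed pseudogene, and the others are C2H2 zinc finger genes. They lay close to 14.44, the top of the scale on these arrays. None passed, with log2 changes between -0.13 and 0.05. For 4 of the 6 genes another probe gave a very different signal: 5.70 for ZNF430, 6.17 for ZNF14, 5.72 for ZNF549, and 4.81 for ZNF876P, where it was detected on no array. The same held for ZNF69, with 12.21 and 5.64 at its brighter and dimmer probe, and for ZNF394, with 12.53 and 6.87. The 2 probes of ZNF207 were closer, at 10.50 and 9.92. ZNF674 and ZNF486 had no other probe for comparison. Which of the probes reports the named transcript was not tested, and the change of genes with such probes is uncertain for that reason. This limit also applies to the values given for ZNF genes above 9.

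Of the 216 genes, 40 had several tested probes. In 10 of them the brightest and dimmest tested probe differed by at least 2 on the log2 scale, and in 9 the probes differed in sign. Probes differed in call in 5 genes. ZNF627 and ZNF366 passed at their brighter probe only, as given above. ZNF585A, ZNF789 and ZNF84 passed at their dimmer probe only, with log2 changes of -0.72 ± 0.17, -0.97 ± 0.19 and -1.02 ± 0.23 SE (adjusted p = 0.0339, 0.0101 and 0.0252), and with -0.13, -0.30 and -0.63 at the brighter probe. All 5 pairs of probes were lower after ODN2006, but the 5 genes were picked by a call, which was a fall each time. With the dimmest tested probe of each gene, 16 genes fell and 1 rose, and the median log2 change was -0.17.

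Genes of the machinery that KRAB zinc finger proteins recruit did not pass the test. In a list of 34 genes of the TRIM28 pathway and of heterochromatin, 26 were tested, none passed in the limma fit with or without the replicate block, and 2, SETDB1 and RBBP4, were lower with an unadjusted p under 0.05. Among the 26, 18 were below 0, with a median log2 change of -0.07. Of all tested genes 61.0% were below 0, with a median of -0.05. In the limma fit 1.81% of them fell and 3.41% rose, and 8.67% were lower with an unadjusted p under 0.05. These counts thus do not set the list apart from all tested genes. TRIM28, the shared corepressor, had log2 intensities of 9.33, 8.96 and 9.30 after ODN2006, against 9.20, 9.27 and 9.17 in untreated cells (log2 change -0.01 ± 0.15 SE, adjusted p = 0.991). SETDB1, the histone H3 lysine methyltransferase that TRIM28 recruits, had 8.66, 8.69 and 8.51 after ODN2006, all below the untreated values of 8.97, 9.06 and 8.92, and did not pass (-0.36 ± 0.14 SE, adjusted p = 0.220).

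Zinc finger genes with other symbol stems (ZSCAN, ZKSCAN, ZBTB, ZFP, PRDM and the like, 53 tested) also held many falls. In the limma fit 5 fell and 1 rose, or 9.43% and 1.89%, and with the replicate block 9 fell and 3 rose, or 17.0% and 5.66%. The share of falls was thus no smaller than the 6.94% (11.1% with the block) of the ZNF genes, while the median log2 change of the relatives was -0.08, against -0.17 for the ZNF genes. ZKSCAN4, a gene with SCAN and KRAB domains, fell at least 2-fold, with 5.88, 5.52 and 5.73 after ODN2006, against 6.58, 7.16 and 6.70 in untreated cells (log2 change -1.10 ± 0.18 SE, adjusted p = 0.00248).

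Over all matched promoters, 12 short motifs were searched on both strands, namely the AP-1 motif TGANTCA, the cAMP response element core TGACG, a loose NF-kB motif GGGNNNNNCC and a narrow one GGAANTCCC, the ETS motif CCGGAAG and its core TTCCGG (whose reverse complement the longer one contains), the E-box CACGTG, the TATA box TATAAA, the YY1 core AAGATGG, the NRF1 core GCATGCG, the GC box and the CCAAT box. CCAAT was found in 11 of the 13 promoters of ZNF genes that fell, or 84.6%, in 46.5% of the other ZNF promoters, in 47.2% of the promoters of all genes that fell, in 38.3% of those of all tested genes and in 35.7% of all promoters. GGGCGG was found in 12 of the 13, or 92.3%, and in 64.5% of the other ZNF promoters. Its share was 74.5% in all genes that fell, 70.5% in tested genes and 44.6% in all promoters. GGGNNNNNCC was also found in 12 of the 13, against 80.8% of the other ZNF promoters. CCGGAAG and TTCCGG were found in 30.8% and 38.5% of the 13, against 39.0% and 52.3% of the other ZNF promoters. CCGGAAG was found in 38.4% of the ZNF promoters, against 20.7% of tested genes and 10.7% of all promoters, and TTCCGG in 51.4%, against 31.8% and 17.6%. TATAAA was found in 1.62% of ZNF promoters, against 5.58% of tested genes and 11.95% of all promoters. GGAANTCCC was found in 11 of 84 ZNF promoters on chromosome 19, or 13.1%, against 1 of 101 ZNF promoters elsewhere, 2.36% of tested genes and 1.86% of all promoters. GGGNNNNNCC was found in 81.6% of ZNF promoters, against 73.4% of tested genes and 58.0% of all promoters. For the 5 remaining motifs the ZNF share lay between 4.32% and 35.1%, and that of tested genes between 4.15% and 36.2%. These matches are descriptions of letters, and the motifs singled out were chosen after the counts were seen.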

How the data were processed

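Extracted total RNA was amplified with an Illumina kit and hybridized to bead arrays, per the labels' protocols. The authors deposited a table of raw probe intensity and of a detection p-value per probe and array, non-normalized per the file headers. They also deposited log2 values of the same arrays. The submitters' processing notes name limma for these (steps and version not given in the sources used here), and they served only as an alternative. Here the raw intensities were background-corrected and quantile-normalized together with neqc of limma 3.58.1 in R 4.3.3 (offset 16). Detection (p under 0.01) on all 3 arrays of a group left 13816 probes for testing. ODN2006 minus untreated was fitted with lmFit and eBayes, two-sided, without covariates, with Benjamini-Hochberg adjustment over all tested probes and a threshold of 0.05. Genes were represented by the tested probe with the highest mean, and 1 ZNF probe with several symbols was left out. The fit was checked on simulated data.

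The genes studied and the lists were chosen with earlier results of these data known, and no test was made over a list. Named are the genes that passed, up to 6 that passed with the replicate block and not without it, the 6 brightest, the 2 nearest either side of the detection limit, those detected in 1 group only, those whose probes differ in call, up to 3 neighbouring pairs on chromosome 19 with a called gene, TRIM28, SETDB1 and other passing pathway genes, and passing relatives with a 2-fold change. ZNF816, ZNF671, ZNF319, ZNF331, RBBP4 and the ends of runs were named after their values were seen. From the relatives, 8 names matched by stem that encode no C2H2 fingers were left out. Same-numbered arrays deviated together (correlations of deviations from group means of 0.41, 0.35 and 0.46, all others below 0), by the data and not by the labels. Deviations within a group sum to 0 for each probe, so the negative correlations follow in part from the positive ones. Alternatives were the replicate block, the deposited log2 values, leaving out background correction, scaling to the median, no filter, detection on all 6 arrays, array weights, a trended and robust prior, averaging a gene's probes and leaving out each array. The dimmest probe and any probe of a gene were added after the data were seen. The number of arrays limits the precision. Promoters are RefSeq's.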

Additional observations from a re-analysis of the deposited data

How the results depend on the processing

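The median log2 change of the ZNF genes was below 0 in every setting, from -0.20 to -0.16 with 1 array left out (-0.23 to -0.18 on chromosome 19). Without background correction it was -0.10, and -0.11 on chromosome 19 (the cause was not tested). Falls numbered 24 with the replicate block, 7 without the filter on dim probes, when all 47218 probes are tested, and 8 to 16 with 1 array left out, in place of 15. Among all tested genes the falls numbered 358, 58 and 51 to 117 in these settings, in place of 158. The counts of ZNF genes thus moved with those of all genes. Other settings gave 11 to 19 falls of ZNF genes. Rises of ZNF genes numbered 3 with the block, 0 without background correction, with median scaling, without the filter and with detection required on all 6 arrays, and 0 to 1 with 1 array left out, in place of 1. Among all tested genes the rises numbered 405, 280, 250, 213, 225 and 226 to 269 in these settings, in place of 297. No called gene turned direction, 6 of 16 kept their call in all 15 settings counted, and 9 lost it with some array left out. The 15 settings leave out the dimmest probe, at which ZNF627, 1 of the 6, did not pass (limma adjusted p = 0.0982). ZNF232 lost its call without background correction and without the filter (adjusted p = 0.0598 to 0.0673). Those settings or median scaling also ended the calls of ZNF319, ZNF366, ZNF398, ZNF556, ZNF655, ZNF671, ZNF816 and ZNF823 (0.0504 to 0.241 over all settings other than a left-out array). The replicate block ended no call. With the mean of a gene's probes, ZNF789 passed (-0.64) and ZNF366 did not. Of the 200 genes that were not called, 20 were followed across settings. Among these, signs turned for ZNF430 (-0.0573), ZNF549 (-0.13) and ZNF14 (0.0435) with the mean of probes, and for ZNF14 with median scaling (0.0309) and array weights (0.0395). With 1 array left out the log2 change ran from -0.0519 to 0.12 for ZNF430, -0.0227 to 0.12 for ZNF876P, -0.13 to 0.0705 for ZNF14, -0.13 to 0.20 for ZNF549, -0.28 to 0.0017 for ZNF585A and -0.16 to 0.0691 for ZNF134. KRAB-type genes could not be set apart, so that planned median was not computed. Signal over background is a limit, since 58.3% of the ZNF probes lay below a log2 intensity of 7.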
